A study of Mus musculus with 32 samples.

Results

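Hippocampus and amygdala of the same 4 *Kdm5c*-KO mice were compared across all genes. The comparison took every library of this genotype, 4 hippocampal and 4 amygdalar, which are 8 of the 32 libraries of the series. The libraries were paired by the animal number that the labels give. Of 53715 genes in the deposited tables, 19017 had enough counts for an adjusted *p* and were tested. The mice were adult males of 1 F1 cross of 129S1/SvImJ *Kmt2a* +/- males with C57BL/6J *Kdm5c* +/- females, so WT, *Kmt2a*-HET (*Kmt2a* +/-), *Kdm5c*-KO (*Kdm5c* -/y) and the double mutant DM (*Kmt2a* +/-, *Kdm5c* -/y) shared a hybrid background. The deletions were constitutive, so they were not confined to a region, a cell type or a stage, and the tissue was microdissected and not sorted. In such bulk samples, fewer cells of a type and less RNA per cell cannot be told apart.

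KDM5C is an X-linked enzyme that removes methyl groups from lysine 4 of histone H3, a mark of active promoters and enhancers, and its loss causes an intellectual disability syndrome. KMT2A is a writer of the same mark. The hippocampus is a pallial structure, built mainly of glutamatergic granule and pyramidal neurons that are laid down under basic helix-loop-helix factors such as NEUROD2 and NEUROD6. The amygdala is a composite of pallial nuclei such as the basolateral complex and of subpallial nuclei such as the central amygdala, whose neurons are largely GABAergic and rich in neuropeptides. The region contrast asked which genes distinguish the regions in tissue without KDM5C, and whether the contrast differed from that of mice with the enzyme.

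The promoters of 4 genes are shown as examples, and no result below rests on their letters. *Neurod2* and *Neurod6* had the largest statistics towards hippocampus, and *Cacng6* and *Acrbp* had region effects that differed from WT in opposite directions. Each is the stretch of 250 bases before the start of the gene in RefSeq (GRCm38.p6), read on the strand of the gene, with every CG dinucleotide in capitals, the letters at which vertebrate DNA is methylated.
Neurod2, minus strand, chr11:98329646-98329895: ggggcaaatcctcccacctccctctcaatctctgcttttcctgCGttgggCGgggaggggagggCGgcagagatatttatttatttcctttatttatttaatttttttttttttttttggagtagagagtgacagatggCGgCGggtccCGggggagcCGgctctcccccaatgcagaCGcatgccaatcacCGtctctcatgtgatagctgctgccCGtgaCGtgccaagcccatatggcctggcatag
Neurod6, minus strand, chr6:55681264-55681513: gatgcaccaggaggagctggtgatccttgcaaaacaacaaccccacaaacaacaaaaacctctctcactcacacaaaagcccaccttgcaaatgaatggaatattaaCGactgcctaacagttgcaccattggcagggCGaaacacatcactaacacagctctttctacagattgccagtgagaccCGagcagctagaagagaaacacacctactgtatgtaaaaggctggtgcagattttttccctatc
Cacng6, plus strand, chr7:3424412-3424661: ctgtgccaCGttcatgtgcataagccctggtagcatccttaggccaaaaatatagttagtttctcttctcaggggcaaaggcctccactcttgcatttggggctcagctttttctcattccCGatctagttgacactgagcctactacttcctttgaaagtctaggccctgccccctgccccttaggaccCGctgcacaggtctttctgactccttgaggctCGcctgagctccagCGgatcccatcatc
Acrbp, plus strand, chr6:125049677-125049926: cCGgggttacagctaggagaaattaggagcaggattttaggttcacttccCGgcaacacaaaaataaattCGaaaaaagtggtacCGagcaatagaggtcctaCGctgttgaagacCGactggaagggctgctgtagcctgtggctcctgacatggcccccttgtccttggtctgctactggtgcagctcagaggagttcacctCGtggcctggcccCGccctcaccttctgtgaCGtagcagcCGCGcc

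*Neurod2* and *Acrbp* hold 11 CG each in this stretch, and 35.6% of the 32851 starts in the table hold as many or more. *Cacng6* holds 5 (55.6% of starts hold as many or more) and *Neurod6* holds 3 (71% do). Over the genes with a promoter in the table, the median was 14 CG for 13078 tested genes, 16 for 1704 genes higher in hippocampus and 13 for 1602 genes higher in amygdala. The 4 stretches shown thus lie below the median of tested genes. These medians are a description of the letters and were not tested. The starts of RefSeq and of the GENCODE annotation used for gene positions differ. By GENCODE *Cacng6* starts at 3424195 and *Acrbp* at 125049689, so the *Cacng6* stretch and most of the *Acrbp* stretch lie within the gene, and that of *Neurod2* reaches a few bases into it.

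The 8 libraries held 19215489 to 26076431 gene counts and 22057 to 23156 genes with at least 1 count. At this depth 3 counts correspond to 0.115 to 0.156 CPM. The ERCC spike-in took 0.158 to 0.336% of the counts in amygdala and 0.0577 to 0.204% in hippocampus. The 2 regions were deposited in separate tables, so region and table cannot be told apart. Both libraries of mouse 1 stood apart. Of 186 groups of 4 libraries examined over the named genes, 24 held a library far from the other 3, and in 22 of these it was a library of mouse 1, 15 times the hippocampal one. Counts without mouse 1 are given for all genes and for the lists of central amygdala, basolateral amygdala, thalamic and choroid plexus genes. Some other lists changed slightly, such as dentate gyrus genes higher in hippocampus (9 to 8) and striatal genes higher in amygdala (14 to 13). The whole-gene count of *Kdm5c*, the targeted gene, does not check the deletion, since the deposited gene values sum over deleted and remaining exons. In amygdala it was 1199 to 1400 normalised counts in *Kdm5c*-KO against 1177 to 1965 in WT, which overlap. In hippocampus it was 1184 to 1410 against 1463 to 1963, so the 4 *Kdm5c*-KO libraries lay below the 4 WT libraries.

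The regional origin of the libraries was looked at with marker genes, chosen with earlier results of these data known. Markers of dentate gyrus granule cells summed to 4918, 13769, 6634 and 6951 normalised counts in the hippocampus of mice 1 to 4, against 3077, 3747, 3956 and 3424 in the amygdala. CA1 markers summed to 16103 to 19772 in hippocampus and 7461 to 9495 in amygdala. Both sums were higher in every hippocampal library than in every amygdalar one. Markers of the central amygdala and intercalated cells summed to 11901 to 22220 in amygdala and 5228 to 10084 in hippocampus, also without overlap. Basolateral amygdala markers did not separate the regions, with 5880 to 9780 in amygdala and 6778 to 9051 in hippocampus.

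Markers of neighbouring structures differed in how far they followed the regions, and of the sums in this paragraph only the hypothalamic one did not overlap. The 13 hypothalamic markers summed to 5399 to 9198 in amygdala and 129 to 804 in hippocampus, where mice 1 and 4 held 788 and 804 and mice 2 and 3 held 140 and 129. The 15 markers of striatal medium spiny neurons summed to 74349, 37353, 11783 and 72398 in the amygdala of mice 1 to 4, so mouse 3 was the lowest. In hippocampus they summed to 22079 in mouse 1 and 7146 to 7689 in the other 3 mice. The 13 choroid plexus markers summed to 904 to 1752 in amygdala and to 110850, 1530, 14269 and 27290 in the hippocampus of mice 1 to 4. Markers of neocortical layers summed to 5014 to 5848 in amygdala and 3452 to 5981 in hippocampus. *Agrp*, a defining hypothalamic peptide, was at or near 0 in both regions, whereas *Oxt* and *Avp* were not in amygdala. The part of these structures in the gene results below was not tested.

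**Figure D1:**
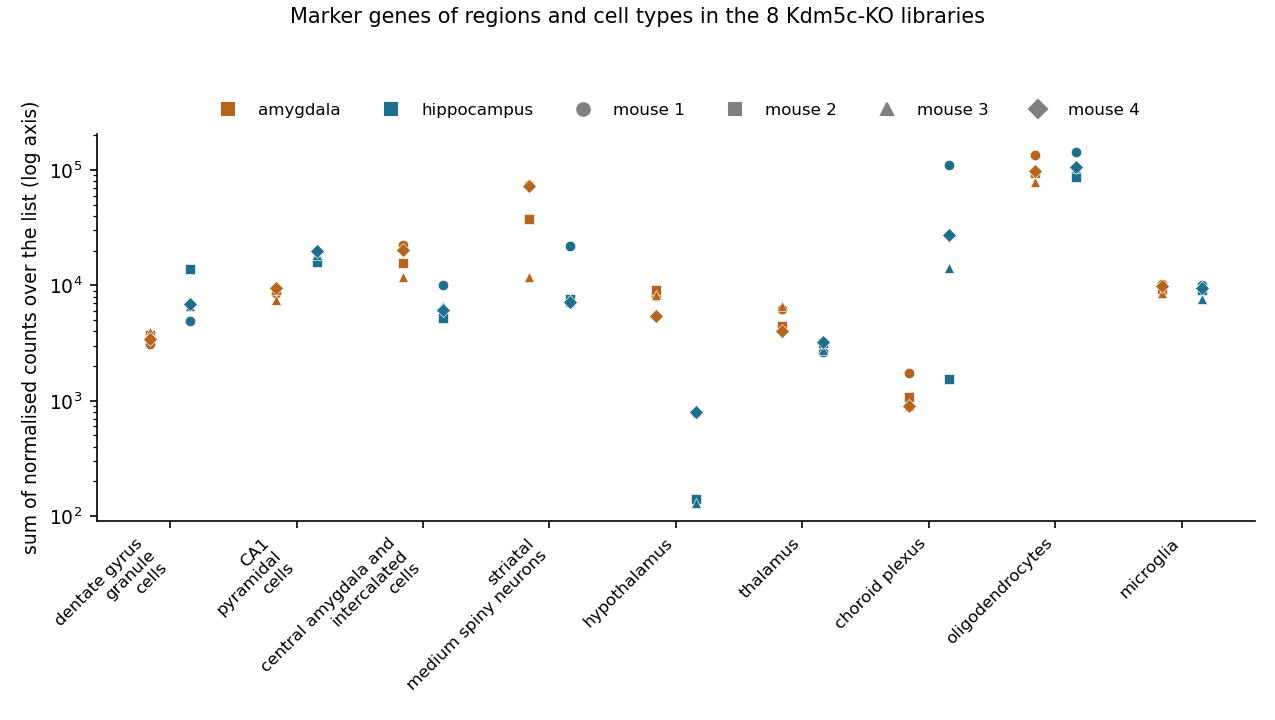
Sum of normalised counts over 9 marker lists (log axis) in the 8 *Kdm5c*-KO libraries, with colour for the region and a symbol for each mouse. Dentate gyrus, CA1, central amygdala and hypothalamus markers separate the regions, choroid plexus markers reach 110850 in the hippocampus of mouse 1, and oligodendrocyte and microglia markers overlap.

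Hippocampus and amygdala of *Kdm5c*-KO differed in many genes. At an adjusted *p* under 0.1 (DESeq2, mouse as a block), 4425 of 19017 genes (23.3%) differed between hippocampus and amygdala. Of these, 2304 (12.1%) were higher in hippocampus, with a median log2 fold change of 0.64, and 2121 (11.2%) were higher in amygdala, with a median of -0.83. Differences of at least 2-fold were held by 727 and 886 of them, and of at least 8-fold by 129 and 206. All 4 mice lay on the same side in 95.1% of the called genes. The libraries of the regions did not overlap in 70.1% of the called genes, and in 20.5% of all tested genes. Without mouse 1, 1915 genes were higher in hippocampus and 1836 in amygdala. These were the highest counts with a mouse left out, which ranged from 1556 to 1915 and from 1377 to 1836. Scaling to the ERCC spike-in instead of the bulk of genes moved the median of all genes by 0.80 on the log2 scale towards hippocampus and gave 7262 genes higher in hippocampus (45.8%) and 297 in amygdala (1.87%). Changes below are therefore relative to the bulk of genes. Protein-coding genes were called most often (26.3% of 15599), against 14.6% of 732 lincRNAs, 11.5% of 722 antisense genes and 3.67% of 354 processed pseudogenes.

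**Figure D2:**
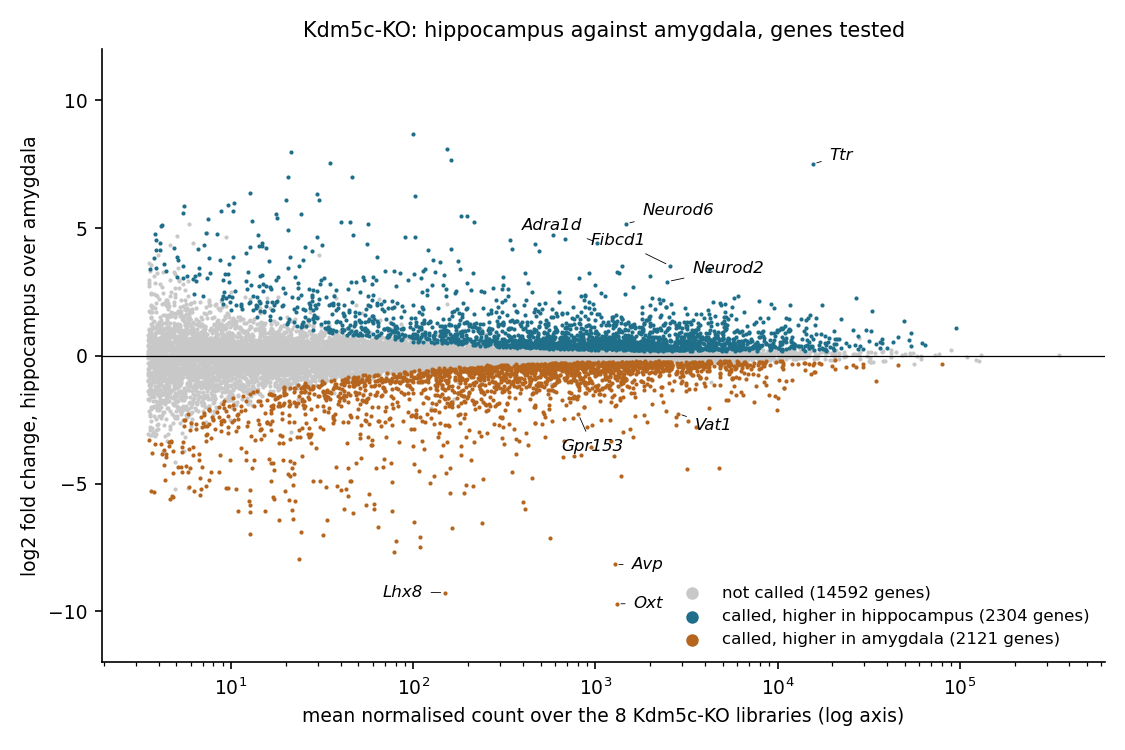
Log2 fold change of hippocampus over amygdala in *Kdm5c*-KO against the mean normalised count (log axis) for the 19017 genes tested. The 2304 genes called higher in hippocampus lie above 0 and the 2121 called higher in amygdala below it, with the labelled *Oxt* and *Avp* near the lower edge.

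The 10 genes with the largest statistics towards hippocampus were led by *Neurod2* and *Neurod6*, transcription factors of glutamatergic neurons. *Neurod2* was at 2635, 5955, 5028 and 3884 normalised counts in the hippocampus of mice 1 to 4 and at 319, 735, 688 and 603 in the amygdala (log2 fold change 2.90 ± 0.11 SE, DESeq2 adjusted *p* = 2.72e-160). *Neurod6* was at 1670, 3389, 3405 and 2957 in hippocampus and at 26.9, 83.7, 108 and 118 in amygdala (5.17 ± 0.19, DESeq2 adjusted *p* = 9.41e-155). Every hippocampal library was above every amygdalar library for both genes, and mouse 1 was the lowest in each region. *Adra1d*, a noradrenaline receptor, followed with 1183, 2548, 2482 and 1639 in hippocampus and 74.0 to 102 in amygdala (4.44 ± 0.17). *Cck*, the cholecystokinin peptide, was at 5615 to 8920 in hippocampus and 1555 to 2069 in amygdala (2.07 ± 0.10). The other leading genes were *Shisa6*, an auxiliary protein of AMPA receptors (3.13), *Chrd*, the BMP antagonist chordin (2.35), the zinc finger repressors *Prdm8* (2.70) and *Zbtb18* (2.25), the CA1 marker *Fibcd1* (3.53) and *Cpne6*, a calcium-binding copine (1.88). None of these 10 genes had overlapping regions.

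Towards amygdala, *Gpr153*, an orphan G protein-coupled receptor, had the largest statistic and was at 1652, 1236, 1287 and 1148 normalised counts in amygdala and at 392, 257, 232 and 238 in hippocampus (log2 fold change -2.27 ± 0.12 SE, DESeq2 adjusted *p* = 3.18e-71). *Calb2*, which encodes calretinin, a calcium buffer of interneurons and thalamic neurons, was at 2515, 1566, 2173 and 1343 in amygdala and 759, 411, 649 and 365 in hippocampus (-1.82 ± 0.10). *Zic1*, a zinc finger factor of septum and diencephalon, was at 835 to 1972 in amygdala and 178 to 294 in hippocampus (-2.44 ± 0.15). The regions did not overlap for these 3 genes, and mouse 1 was the highest in both regions for each. *Vat1*, a vesicle membrane protein, fell by 2.26 on the log2 scale from amygdala to hippocampus. The other genes of this group of 10 were the metabotropic glutamate receptor *Grm4* (-1.68), synaptotagmin *Syt2* (-1.59), the GABA transporter *Slc6a11* (-1.54), *Tmem130* (-1.79), the Rap activator *Rasgrp2* (a mean of 2023 in amygdala against 378 in hippocampus) and *Ass1* of the urea cycle (-1.48). *Syt2*, *Slc6a11* and *Ass1* were no longer called under ERCC scaling (DESeq2 adjusted *p* = 0.108, 0.104 and 0.147).

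**Figure D3:**
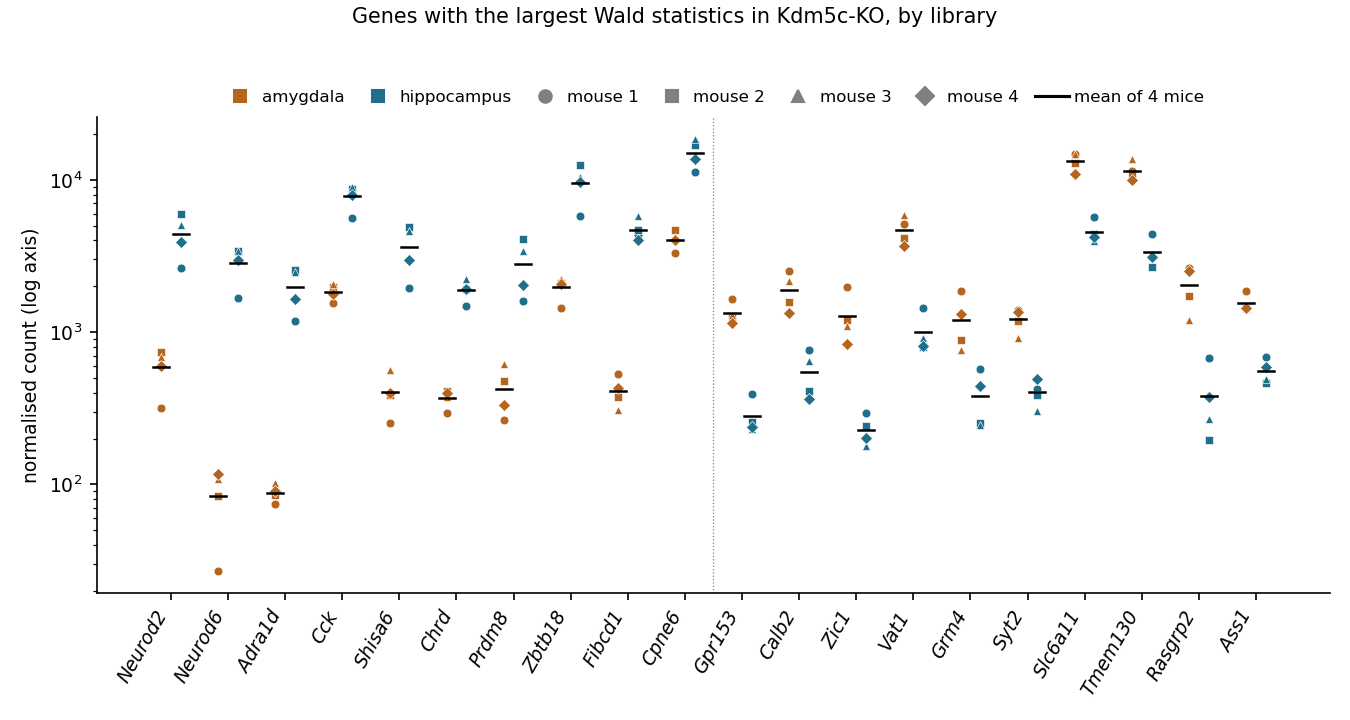
Normalised counts (log axis) of the 10 genes with the largest statistic in each direction, by region (colour) and mouse (symbol), with bars at the mean of 4 mice. The regions do not overlap for any of the 20 genes, and mouse 1 is the lowest in the hippocampus for 9 of the 10 genes to the left of the dotted line.

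Among genes with a mean of at least 50 normalised counts, *Oxt*, *Avp*, *Lhx8*, *Calcr* and *Isl1* had the largest fitted folds towards amygdala. *Oxt*, oxytocin, was at 2840, 3783, 1868 and 1946 normalised counts in amygdala and at 49.8, 5.58, 1.01 and 0 in hippocampus. *Avp*, vasopressin, was at 3318, 3085, 1747 and 1720 in amygdala and at 343, 6.51, 1.01 and 4.79 in hippocampus. Both hormones are made by magnocellular neurons of the hypothalamus, and the hippocampal library of mouse 1 held most of what the hippocampus showed. *Lhx8*, a factor of cholinergic neurons, was at 138 to 370 in amygdala and at 28.8 in the hippocampus of mouse 1, with 0 in the other 3. *Calcr*, the calcitonin receptor, and *Isl1*, a factor of striatal and hypothalamic neurons, followed the same form with means of 153 and 210 in amygdala against 4.38 and 7.10 in hippocampus.

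Towards hippocampus the largest folds were those of *Gm26821*, *Klk10*, *Slc9a4*, *Ttr* and *Kcne2*. *Klk10*, a secreted protease, was at 33.2, 444, 452 and 289 in hippocampus and at 2.24 or less in amygdala. *Slc9a4*, a sodium-proton exchanger, was at 215 to 453 in hippocampus and at 9.25 or less in amygdala. *Gm26821* was at 82.8 to 273 in hippocampus and at 69.5, 0, 0 and 0 in amygdala, and was not called without the mouse block (DESeq2 adjusted *p* = 0.347). *Ttr*, the thyroid hormone carrier of the choroid plexus, was at 89647, 385, 11019 and 23206 in hippocampus and at 572, 70.7, 23.1 and 34.2 in amygdala. Its regions overlapped, as did those of *Kcne2*, a potassium channel subunit of the same tissue. For these 10 genes levels are given, since all their fitted folds moved by over 1.5 times when certain single mice were left out.

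Hippocampal subfield genes were counted as lists. These and the lists below were chosen with earlier results of these data known, so their counts describe and do not test. Of 10 dentate granule cell genes, 9 were higher in hippocampus and *Plk5* was higher in amygdala. *Lct* was at 178, 1777, 858 and 761 in hippocampus against 13.5 to 57.4 in amygdala (log2 fold change 4.37). *Dsp*, desmoplakin, was at 497, 2855, 937 and 989 against 24.2 to 61.7 (4.58, and 3.90 without mouse 2), and *C1ql2*, a synaptic organiser of mossy fibres, was at 850 to 1890 against 204 to 426 (1.90). Mouse 2 was the highest and mouse 1 the lowest hippocampal library for all 3 genes. Of 7 CA1 genes, 6 were higher in hippocampus, among them *Spink8* with 273 to 456 against a mean of 8.45 (5.48) and *Mpped1* with 4203 to 5958 against 1568 to 2094 (1.42), while *Wfs1* was higher in amygdala (-0.43), though not without the mouse block (DESeq2 adjusted *p* = 0.104). The CA3 list had 4 of 6 higher in hippocampus, with the kainate receptor subunit *Grik4* at 1.64 and *Iyd* at 4.43 to 40.9 against at most 1.85, and *Coch* was higher in amygdala (-1.60). The CA2 list was mixed, with 4 of 7 higher in hippocampus, led by *Rgs14*, a regulator of G protein signalling that marks CA2 (1.27), and *Pcp4* (-1.10) and *Cacng5* (-1.24) higher in amygdala. *Pcp4*, *Cacng5* and *Coch* were not called under ERCC scaling (DESeq2 adjusted *p* = 0.517, 0.307 and 0.121). Under ERCC scaling the counts in hippocampus were 9, 6, 4 and 4 for dentate gyrus, CA1, CA2 and CA3, with none in amygdala (45.8% and 1.87% of all genes). The background of calls in the hippocampal direction was 12.1%.

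Of 11 genes of central amygdala and intercalated cells, 9 were higher in amygdala and 2 were not called, *Prkcd* (log2 fold change 0.49) and *Sst* (-0.12). *Pdyn*, prodynorphin, was at 2486, 1103, 779 and 2260 in amygdala and at 455, 293, 107 and 191 in hippocampus (-2.69). *Nts*, neurotensin, was at 337 to 431 against 19.1 to 65.3 (-3.37), and *Tac2*, neurokinin B, was at 221 to 276 against 19.5 to 103 (-2.70). The libraries of the regions did not overlap for these 3 genes. In this direction 11.2% of all tested genes were called. Without mouse 1, 9 genes were called higher in amygdala and 1 in hippocampus.

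The basolateral amygdala list was mixed, with 2 of 6 genes higher in hippocampus (12.1% of all tested genes) and 1 in amygdala (11.2% of all). *Rspo2*, a Wnt agonist, was at 37.0, 54.9, 89.8 and 116 in amygdala and at 455, 235, 370 and 597 in hippocampus, without overlap (DESeq2 adjusted *p* = 6.87e-19). *Etv1*, an ETS factor, was also higher in hippocampus (1.15). Only *Tfap2d* of the 6 genes was called in amygdala, at 2.24 to 12.1 counts against at most 1.86, and it was too low to be tested without mouse 2, 3 or 4 or under ERCC scaling. *Lmo3*, *Lypd1* and *Nr2f2* were not called. Without mouse 1, 3 of the 6 genes were higher in amygdala and 2 in hippocampus.

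Of 15 striatal medium spiny neuron genes, 14 were higher in amygdala, where 11.2% of all tested genes were, and *Lrrc10b* was not called. The dopamine receptor *Drd1* was at 1188, 637, 217 and 1156 in amygdala and at 281, 93.9, 55.4 and 91.0 in hippocampus (log2 fold change -2.62). *Tac1*, which encodes substance P, was at 1939, 969, 389 and 1461 against 402, 81.8, 55.4 and 57.5 (-3.31), and *Rgs9* was at 745 to 3916 against 153 to 790 (-2.99). The regions overlapped for all 3, since the amygdala of mouse 3 lay below the hippocampus of mouse 1, yet within each of the 4 mice the amygdala was higher. Of 12 hypothalamic genes tested, 11 were higher in amygdala, against the same 11.2%. The galanin gene *Gal* was at 193 to 292 against 4.03 to 23.2 (-4.70), *Nkx2-1* at 204 to 320 against 4.79 to 38.7 (-3.90) and *Sim1* at 68.4 to 190 against at most 5.53. *Pomc*, the melanocortin precursor, was not called (-0.39). The thalamic list had 4 of 8 genes higher in amygdala, again beside 11.2% of all, among them *Gbx2*, at 286, 70.7, 76.8 and 49.3 against at most 5.04, *Tcf7l2* (-1.86) and the vesicular glutamate transporter *Slc17a6* (-3.57, with -2.78 without mouse 3 and -4.29 without mouse 4). Without mouse 1, 4 thalamic genes were higher in amygdala and 1 in hippocampus. With ERCC scaling 13 striatal, 9 hypothalamic and 3 thalamic genes were higher in amygdala (1.87% of all), and 1 thalamic gene was higher in hippocampus (45.8% of all).

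Of 13 choroid plexus genes, 12 were higher in hippocampus, where 12.1% of all tested genes were, and *Clic6* was not called (log2 fold change -0.02). *Folr1*, the folate receptor of the plexus epithelium, was at 1236, 9.30, 114 and 193 in hippocampus and at 29.2, 0, 0.93 and 6.04 in amygdala. *Sostdc1*, a secreted BMP and Wnt antagonist, was at 562, 92.1, 134 and 125 against 16.1 to 35.2. Mouse 1 was far above the others in both genes, and without it 10 of the 13 genes were called higher in hippocampus. With ERCC scaling the count stayed at 12 (45.8% of all genes). The list varied between genotypes. In WT 10 of the genes were called higher in hippocampus, in *Kmt2a*-HET 2 there and 2 in amygdala, and in DM 0. The shares of all genes called in either direction were 16%, 33.1% and 30.4%. In DM the marker sum was highest in the amygdala of mouse 1, at 43946, against 1251 to 31657 in hippocampus.

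None of the 12 oligodendrocyte, 11 microglial, 9 endothelial, 9 ependymal or 5 blood genes was called by DESeq2 or edgeR with default scaling, and 1 of these 46 genes had an unadjusted *p* under 0.05. The myelin gene *Mbp* averaged 53079 normalised counts in amygdala and 57816 in hippocampus (log2 fold change 0.13). Under ERCC scaling 10 of 12 oligodendrocyte, 4 of 9 endothelial, 3 of 9 ependymal, 2 of 11 microglial and 2 of 5 blood genes were called higher in hippocampus, as were 45.8% of all genes tested with that scaling. Of 11 astrocyte genes, 2 were higher in hippocampus and 4 in amygdala (12.1% and 11.2% of all tested genes). *Gfap* was at 9425 to 10837 in hippocampus and 4990 to 5849 in amygdala (0.93), and the glutamate transporter *Slc1a2* was higher in hippocampus (0.42). *S100b* (-0.38), *Aldh1l1* (-0.37), *Gjb6* (-0.37) and *Fgfr3* (-0.25) were higher in amygdala with overlapping libraries. Without the mouse block *S100b*, *Aldh1l1* and *Fgfr3* were not called (DESeq2 adjusted *p* = 0.205, 0.158 and 0.136), nor was *S100b* without mouse 4. Under ERCC scaling no astrocyte gene was called higher in amygdala and 3 of 11 were called higher in hippocampus, and the sign of *S100b* turned (0.41).

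**Figure D4:**
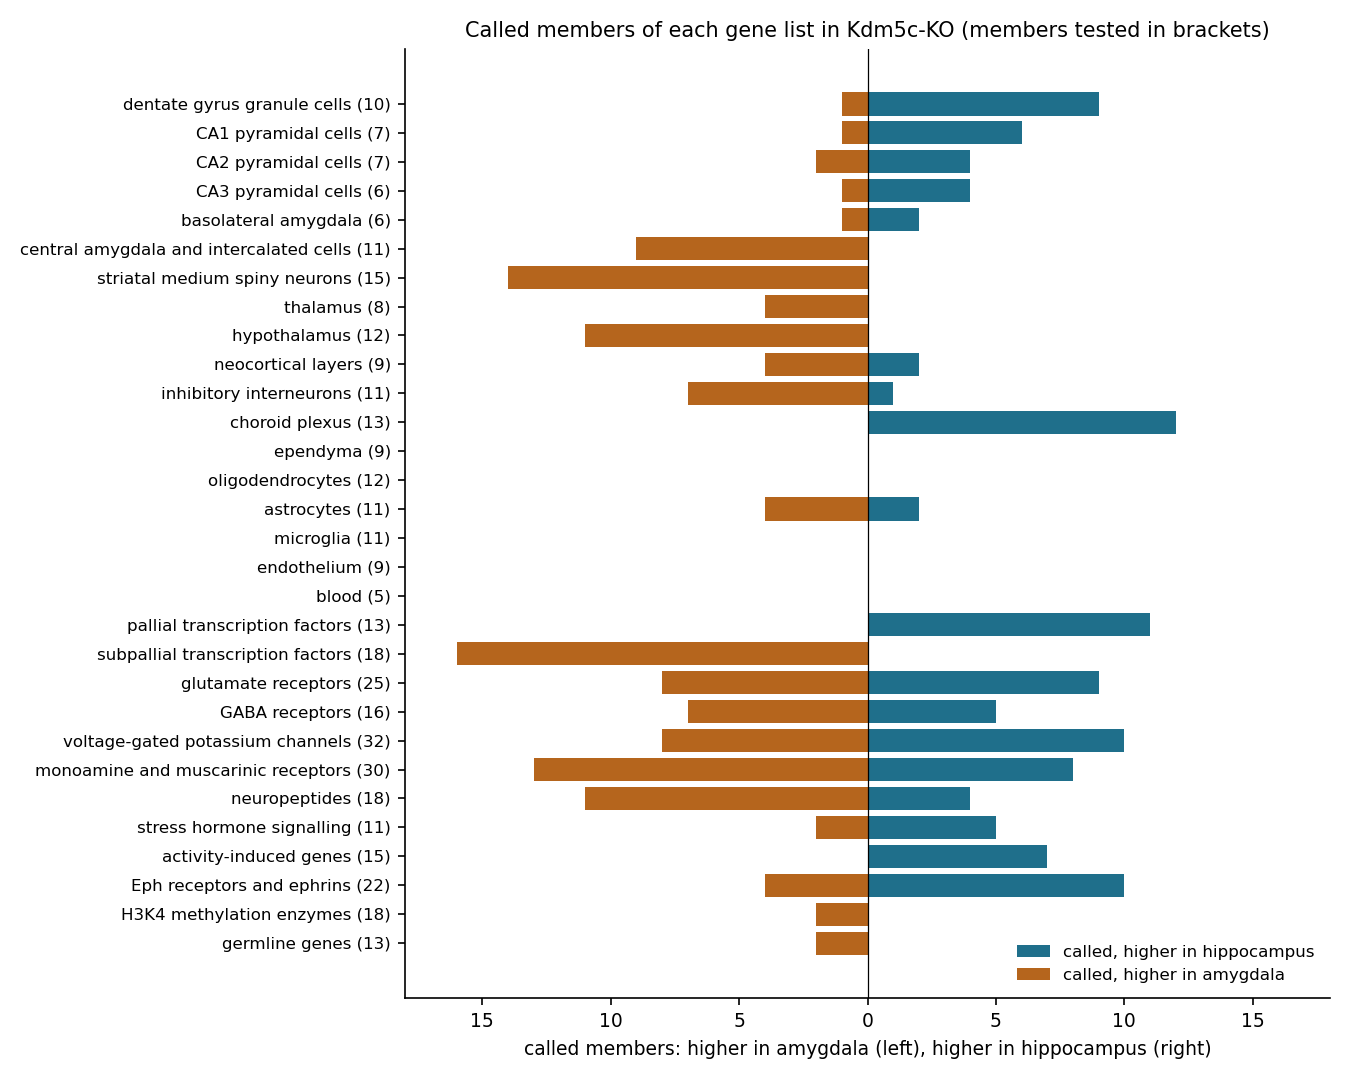
Number of called members of each of 30 gene lists in *Kdm5c*-KO, higher in amygdala to the left and higher in hippocampus to the right, with the number of members tested in brackets. Pallial transcription factors and choroid plexus genes lie to the right, subpallial factors, striatal and hypothalamic genes to the left, and the ependymal, oligodendrocyte, microglial, endothelial and blood lists hold no called member.

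Developmental transcription factors, in lists chosen with earlier results of these data known, divided mostly by their origin. Of 13 pallial factors, 11 were higher in hippocampus (12.1% of all tested genes) and none in amygdala. *Fezf2* was at 650 to 848 in hippocampus and 67.3 to 128 in amygdala (log2 fold change 2.83). *Tbr1* (0.12) and *Bcl11b* (0.52) were not called. Of 18 subpallial factors, 16 were higher in amygdala (11.2% of all) and none in hippocampus. *Zfhx3* was at 579 to 1039 in amygdala and 110 to 169 in hippocampus (-2.65), and *Pbx3* was at 452 to 649 against 55.8 to 172 (-2.65). *Dlx1* (-0.23) and *Gsx2* (0.08) were not called. Under ERCC scaling the pallial count was 13 of 13 (45.8% of all genes) and the subpallial count 9 of 18 (1.87% of all), with no member in the other direction.

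Of 11 inhibitory neuron genes, 7 were higher in amygdala, where 11.2% of all tested genes were. *Gad2*, which makes GABA, was at 7728, 8000, 8205 and 8130 in amygdala and at 3266, 2283, 2332 and 1967 in hippocampus (log2 fold change -1.73). *Slc32a1*, the vesicular GABA transporter, was at 6098 to 10093 against 2108 to 3269 (-1.71), and *Gad1* was at 7607 to 9770 against 4231 to 5178 (-0.91). These 3 did not overlap between regions. *Pvalb* was higher in hippocampus (0.56), though not without the mouse block (DESeq2 adjusted *p* = 0.489), and *Sst*, *Vip* and *Npy* were not called. Under ERCC scaling 2 of the 11 genes were higher in amygdala (1.87% of all) and 2 in hippocampus (45.8% of all), and *Gad1* was not called (DESeq2 adjusted *p* = 0.795).

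Of 25 glutamate receptor genes, 9 were higher in hippocampus (12.1% of all tested genes) and 8 in amygdala (11.2% of all). Under ERCC scaling the counts were 13 (45.8% of all) and 1 (1.87% of all). *Grin2a*, an NMDA receptor subunit, was at 3840, 11203, 8890 and 7440 in hippocampus and at 1154, 1860, 2521 and 2216 in amygdala (log2 fold change 1.97). *Gria2*, the AMPA subunit that limits calcium entry, was at 8561 to 13812 against 5209 to 7975 (0.77), with mouse 1 low in both regions. *Grm4* was the receptor with the largest statistic towards amygdala. Of 16 GABA receptor genes tested, 5 were higher in hippocampus (12.1% of all tested genes) and 7 in amygdala (11.2% of all). Under ERCC scaling 7 were higher in hippocampus, a share near the 45.8% of all genes, and 3 in amygdala (1.87% of all). *Gabra5*, whose receptors carry tonic inhibition in pyramidal cells, was at 2143 to 4354 in hippocampus and 585 to 853 in amygdala (2.26). *Gabrg1* (-1.64) and *Gabrg3* (-0.91) were higher in amygdala, and *Gabrg3* was not called under ERCC scaling (DESeq2 adjusted *p* = 0.797).

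Voltage-gated potassium channels were called in both directions, 10 of 32 higher in hippocampus (12.1% of all tested genes) and 8 in amygdala (11.2% of all), and under ERCC scaling 20 (45.8% of all) and 2 (1.87% of all). *Kcng2*, a modifying subunit, was at 747 to 1386 in hippocampus and 136 to 230 in amygdala (log2 fold change 2.51). *Kcnh2* (-1.03) and *Kcnh4* (-1.91), members of the ether-a-go-go family, were higher in amygdala, and *Kcnh2* was not called under ERCC scaling (DESeq2 adjusted *p* = 0.590). Of 30 monoamine and muscarinic receptors, 8 were higher in hippocampus, led by *Adra1d*, and 13 in amygdala, with *Chrm2* at 394 to 591 against 108 to 150 (-1.90). The shares of all tested genes were 12.1% and 11.2%. Under ERCC scaling the counts were 9 (45.8% of all) and 5 (1.87% of all).

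Of 18 neuropeptide genes tested, 11 were higher in amygdala (11.2% of all tested genes), 4 were higher in hippocampus (12.1% of all) and 3 were not called. *Cck*, *Grp*, *Cort* and *Nmb* formed the hippocampal group. Under ERCC scaling 10 were higher in amygdala (1.87% of all) and 5 in hippocampus (45.8% of all). Of 11 stress hormone genes, 5 were higher in hippocampus (12.1% of all tested genes) and 2 in amygdala (11.2% of all). The counts were the same under ERCC scaling, where 5 of 11 is near the 45.8% of all genes called higher in hippocampus. *Nr3c2*, the mineralocorticoid receptor, was at 2317, 5546, 4232 and 3518 in hippocampus and at 675, 809, 895 and 885 in amygdala (log2 fold change 2.20). *Hsd11b1*, which regenerates active glucocorticoid, was at 365 to 562 against 84.7 to 137 (2.17). *Crh*, the corticotropin-releasing hormone, was at 91.6 to 152 in amygdala and 15.8 to 40.9 in hippocampus (-2.03), and the glucocorticoid receptor *Nr3c1* was not called (-0.06).

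Of 15 activity-induced genes, 7 were called higher in hippocampus (12.1% of all tested genes) and none in amygdala (11.2% of all). By edgeR 1 was called higher in amygdala, and under ERCC scaling 10 were higher in hippocampus (45.8% of all). *Nr4a3*, a nuclear receptor, was at 1644, 2924, 3050 and 2057 in hippocampus and at 409, 199, 262 and 184 in amygdala (log2 fold change 3.24). *Arc* was at 1357 to 2204 against 451 to 1039 (1.52) and *Fosl2* at 902 to 1415 against 402 to 845 (1.10). The earliest responders *Fos* (-0.53), *Npas4* (-0.02) and *Egr2* (0.01) were not called. Of 22 Eph receptors and ephrins, which guide axons by contact, 10 were higher in hippocampus (12.1% of all tested genes) and 4 in amygdala (11.2% of all), and under ERCC scaling 11 (45.8% of all) and 1 (1.87% of all). *Epha7* was at 1324 to 4794 in hippocampus and 677 to 1140 in amygdala (1.56), *Epha6* at 381 to 2020 against 200 to 578 (1.44), and *Epha8* was higher in amygdala (-1.80). *Epha6* overlapped between regions because mouse 1 was low in both.

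Of 18 writers and erasers of H3K4 methylation, 2 were called higher in amygdala, a share near the 11.2% of all tested genes, and none higher in hippocampus, against 12.1% of all. The other 16 were not called, among them *Kmt2a* (log2 fold change -0.05, DESeq2 adjusted *p* = 0.836) and *Kdm5c* itself, at 1179, 1203, 1374 and 1190 in amygdala and 1167, 1399, 1263 and 1289 in hippocampus (0.05 ± 0.11, DESeq2 adjusted *p* = 0.860). The demethylases *Kdm5a* (0.15), *Kdm5b* (0.19) and the Y-linked *Kdm5d* (-0.14) were not called either. *Smyd1* was at 87.5 to 167 in amygdala and 23.2 to 76.4 in hippocampus (-1.55), and *Smyd3* was at 753 to 1037 against 526 to 564 (-0.62). Under ERCC scaling 9 of the 18 genes, *Kdm5c* included, were called higher in hippocampus, a share near the 45.8% of all genes, *Smyd1* was not called (DESeq2 adjusted *p* = 0.161) and *Smyd3* changed sign (0.17).

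KDM5C is known to repress germline genes in brain. Of 24 genes of this kind, 13 were tested, the other 11 being too low, and 2 were called higher in amygdala, where 11.2% of all tested genes were. None was called higher in hippocampus. *Zar1*, an oocyte gene, was at 104, 117, 112 and 102 in amygdala and at 12.2, 7.44, 4.03 and 18.2 in hippocampus (log2 fold change -3.48), and *Dmrtb1* was at 73.1 to 89.7 against 5.04 to 9.96 (-3.41). The regions were far apart for both genes. They were so in WT as well, with log2 fold changes of -4.29 and -3.07, and the difference of *Zar1* between the genotypes was not called (0.59 ± 1.08 SE, DESeq2 adjusted *p* = 1). *Ddx4* (0.08), *Dazl* (-0.06) and *Tex14* (-0.28) were not called between the regions.

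The same contrast in other mice gave mostly the same genes, with choroid plexus genes an exception in *Kmt2a*-HET and DM. In WT, 3047 of the tested genes (16%) were called. Of these, 2594 were called in the same direction in *Kdm5c*-KO and none in the opposite one, which is 58.6% of the *Kdm5c*-KO calls and 85.1% of the WT calls. In *Kmt2a*-HET 6459 genes (33.1%) were called, with 3664 in the same and 4 in the opposite direction. In DM 5946 genes (30.4%) were called, with 3773 in the same and 3 in the opposite direction. Of the *Kdm5c*-KO calls, 2476 (56.0%) were called in the same direction in all 3 other genotypes, and 420 (9.49%) were called in no other. None of those 420 was called in a test of the difference between genotypes, which does not show that their region effects were equal. Across the 18541 genes tested in both, the log2 fold changes of *Kdm5c*-KO and WT correlated at 0.79 (Pearson), which is across genes, and genes are not independent replicates. *Neurod2* and *Neurod6* had log2 fold changes of 2.58 and 4.33 in WT, and *Gpr153* of -1.89.

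The difference of the region effect itself was then tested in 1 fit of all 32 libraries. Against WT it was called for 4 of 32048 genes (0.0125%), and 538 genes had an unadjusted *p* under 0.05. That is fewer than uniform *p*-values would give at this threshold, so the test was conservative. A gene that was not called is not shown to have the same region effect in both genotypes. By edgeR 1 gene was called, *Cacng6*. *Cacng6*, a gamma subunit of voltage-gated calcium channels on chromosome 7 (mm10, 3424195 to 3435667, plus strand), was at 141, 560, 453 and 404 in the hippocampus of *Kdm5c*-KO mice 1 to 4 and at 20.5, 59.7, 49.0 and 34.9 in their amygdala. In WT it was at 22.7 to 48.9 in hippocampus and 10.2 to 62.6 in amygdala. The *Kdm5c*-KO hippocampus thus lay above every WT library of both regions, while the amygdalar libraries overlapped, and the region effect was larger by 2.74 ± 0.45 SE on the log2 scale (DESeq2 adjusted *p* = 2.49e-05). DM showed the same form, with 418 to 662 in hippocampus and 32.6 to 54.9 in amygdala. In *Kmt2a*-HET it was at 38.3 to 77.7 in hippocampus and 11.7 to 26.3 in amygdala, so the regions did not overlap there either. Against *Kmt2a*-HET the region effect was larger by 1.80 ± 0.44 SE (DESeq2 adjusted *p* = 0.0989). That call was missed by edgeR (adjusted *p* = 0.111) and without the mouse block (DESeq2 adjusted *p* = 0.935). Mouse 1 had the lowest *Cacng6* count of the *Kdm5c*-KO libraries in each region, and the call against WT held in every alternative run, each left-out mouse included.

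*Pnck*, a calcium and calmodulin-dependent kinase on chromosome X (73655994 to 73660117, minus strand), was at 1856 to 3030 in WT amygdala and 1211 to 1548 in WT hippocampus. In *Kdm5c*-KO it was at 3078 to 3805 in amygdala and 3268 to 3838 in hippocampus, so the 2 regions overlapped where those of WT did not. The region effect differed by 0.83 ± 0.17 SE (DESeq2 adjusted *p* = 0.0250). *Acrbp*, a sperm acrosome protein on chromosome 6, was at 259, 226, 225 and 279 in the amygdala of *Kdm5c*-KO mice 1 to 4, above the 71.3 to 124 of WT, and at 70.3 to 178 in hippocampus against 94.2 to 174 in WT (-1.42 ± 0.31, DESeq2 adjusted *p* = 0.0698). *1700003F12Rik* on chromosome 2 was at 36.5 to 86.2 in *Kdm5c*-KO amygdala and 10.1 to 21.4 in hippocampus, against 26.6 to 32.5 and 23.9 to 48.9 in WT (-2.03 ± 0.46, DESeq2 adjusted *p* = 0.0806). The last 2 genes overlap others, *Acrbp* the antisense gene 4930557K07Rik and the transcript Gm44597, and *1700003F12Rik* the gene *Necab3* on the opposite strand. By edgeR, *Pnck*, *Acrbp* and *1700003F12Rik* missed the threshold (adjusted *p* = 0.165, 0.165 and 0.192), and leaving out single mice of either genotype ended each of these 3 calls.

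Against *Kmt2a*-HET the region effect differed for 12 of 23659 genes (0.0507%), 11 of them with a higher value in *Kdm5c*-KO, and edgeR called 9. The count of 12 was unstable, at 4 to 77 with 1 mouse left out and 61 with only the 16 libraries of these genotypes. *Dnah1*, a heavy chain of axonemal dynein, was at 923 to 1484 in *Kdm5c*-KO amygdala and 736 to 967 in hippocampus, against 490 to 689 and 163 to 234 in *Kmt2a*-HET (1.16 ± 0.20 SE, DESeq2 adjusted *p* = 0.000216). *Pnck* followed (0.97 ± 0.17), and then *6330403K07Rik*, at 7997 to 10904 and 5081 to 6591 in *Kdm5c*-KO against 7059 to 7974 and 2182 to 2714 (0.85 ± 0.16). *Dnah1* overlaps the antisense gene Gm35823, and the strand setting of the counting is not given in the sources used here. *Dnah1* and *Pnck* were above the *Kmt2a*-HET libraries in both regions, and the excess was greater in hippocampus. *Wdr95*, *Cd44* and *Adamts14* were called too, *Cd44* with a log2 difference of 1.82. Each of these last 3 calls was lost when certain single mice were left out, and *Wdr95* and *Adamts14* had groups of only a few counts. Outside the naming rule, and chosen after its values were seen, *Ido2* was at 73.0, 128, 128 and 134 in *Kdm5c*-KO hippocampus and 23.6 to 42.4 in amygdala, and in DM at 174 to 220 and 26.6 to 32.1.

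Against DM, which shares the *Kdm5c* deletion, 3 of 32048 genes were called (0.00936%), and edgeR called 2. With 1 mouse left out the DESeq2 count was 0 to 16. The hippocampal levels of *Tac1* and *Gpr6*, both striatal markers, were highest in *Kdm5c*-KO mouse 1. *Tac1* was at 407, 82.5, 56.1 and 58.5 in *Kdm5c*-KO hippocampus against 28.7 to 34.6 in DM, and at 396 to 1973 against 1194 to 1552 in amygdala (log2 difference 2.05 ± 0.39 SE, DESeq2 adjusted *p* = 0.00482). *Gpr6* was at 153, 13.1, 17.4 and 41.9 in hippocampus against 9.73 to 14.9 in DM (2.39 ± 0.53, DESeq2 adjusted *p* = 0.0589). Without *Kdm5c*-KO mouse 1 neither was called (DESeq2 adjusted *p* = 0.163 and 1), and without mouse 3 neither was (0.188 and 1). The *Tac1* call was also lost with the 16 libraries of *Kdm5c*-KO and DM alone (DESeq2 adjusted *p* = 0.357), and both calls were lost without the mouse block (1 for each). The striatal marker sum of the same scale was 7239 to 22395 in *Kdm5c*-KO hippocampus against 7586 to 9181 in DM, and 12004 to 75634 against 43440 to 88316 in amygdala. Its part in the difference was not tested. *2210418O10Rik* was at 0 in 3 DM hippocampal libraries and 2 *Kdm5c*-KO amygdalar libraries, so its fitted difference bounds no fold.

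**Figure D5:**
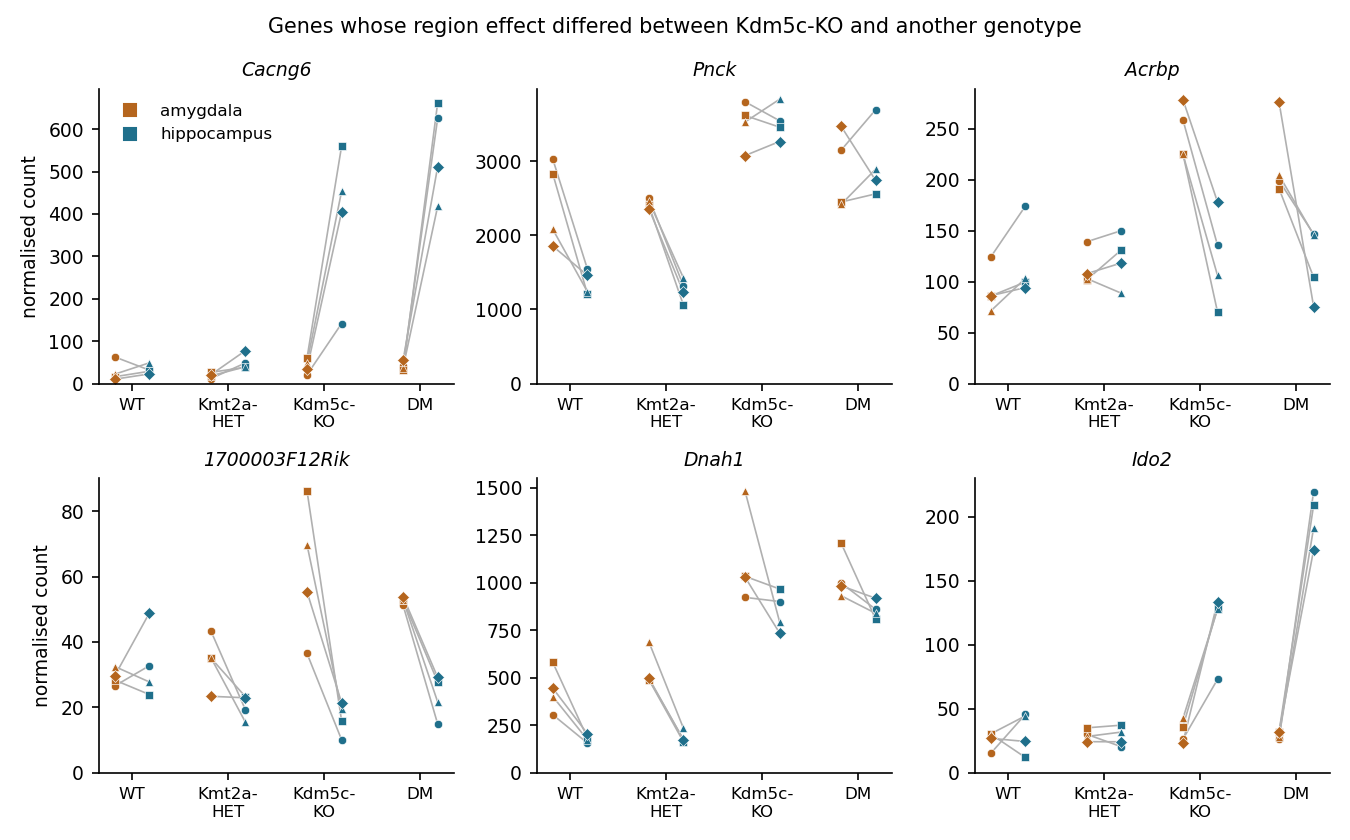
Normalised counts of 6 genes in the amygdala and hippocampus of 4 genotypes, with a line for each mouse. The hippocampal points of *Cacng6* and *Ido2* in *Kdm5c*-KO and DM lie above those of WT, those of *Pnck* and *Dnah1* in *Kdm5c*-KO lie above WT in both regions, and *Acrbp* and *1700003F12Rik* lie higher in the *Kdm5c*-KO and DM amygdala than in their hippocampus.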

How the data were processed

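RNA of hippocampus and amygdala was sequenced after oligo-dT priming with a directional kit. The authors mapped reads to mm10 (per the labels, STAR 2.5.3a and Subread 1.5.0), kept unique reads, removed duplicates and deposited expected counts per gene. The methods name featureCounts, whereas the tables are named expected counts and hold values that are not whole, so how these were estimated is not given in the sources used here. They were rounded to whole numbers, and 92 ERCC sequences were left out of tests. Symbols and coordinates came from GENCODE M21 (53620 of 53715 genes), and the isoform tables were not used.

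Testing used R 4.3.3 and DESeq2 1.42.0 (Wald test, Benjamini-Hochberg adjusted *p* under 0.1, default size factors and filtering, unshrunken log2 fold changes). The 8 *Kdm5c*-KO libraries were fitted with region and mouse. The labels give both regions of a mouse the same animal number, and their deviations from the group means correlated at 0.131 to 0.429. Mice 2 and 3 (0.143 and 0.131) correlated more with each other than with themselves (amygdala 3 with hippocampus 2 at 0.197, amygdala 2 with hippocampus 3 at 0.173), so the pairing rests on the labels. Differences between genotypes were tested over all 32 libraries with 16 mouse terms and 1 hippocampus term per genotype. Alternatives were edgeR 4.0.16, TMM or ERCC scaling, no block, filters, other thresholds and leaving out each mouse. Fits were tested on simulated data. Replicates were separate mice.

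Named genes were *Kdm5c* and *Kmt2a*, the 10 with the largest statistic and 5 with the largest fold per direction (all 4 mice on 1 side, the latter with a mean count of at least 50), up to 3 called members of each of 30 lists, and up to 6 per difference test. Where a list had 5 or fewer called members, all could be named. Members of a list that were not called are named to show its limits. Members and lists were chosen with earlier results of these data known. Levels in the 2-region comparison and in the 4-genotype comparison were scaled over 8 and 32 libraries respectively. Values in brackets are log2 fold changes, hippocampus over amygdala, or log2 differences of these. Figures were drawn with matplotlib 3.10.9.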

Additional observations from a re-analysis of the deposited data

Results flagged for a closer look

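In 24 of 186 groups of 4 libraries, 1 library lay far from the other 3 by Dixon's criterion, which chance gives in about 1 of 20 groups. In the hippocampus of mouse 1 the high values were *Gpr153* at 392, *Vat1* at 1448, *Oxt* at 49.8, *Lhx8* at 28.8, *Avp* at 343, *Calcr* at 16.6, *Isl1* at 26.6, *Drd1* at 281, *Tac1* at 402, *Rgs9* at 790, *Zfhx3* at 169 and *Chrm2* at 150 normalised counts. In the same library the choroid plexus genes *Folr1* (1236) and *Sostdc1* (562) were high and *Gria2* (8561) was low. In the amygdala of mouse 1, *Ass1* (1865), *Gm26821* (69.5), *Ttr* (572), *Kcne2* (13.5), *Gbx2* (286) and *Smyd1* (167) were high and *Gria2* (5209) was low. In the amygdala of mouse 3, *Kdm5c* (1374) and *Chrm2* (591) were high.

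The region effect differed between genotypes by its own test for 13 named cases. Against WT the log2 differences were 2.74 for *Cacng6*, 0.83 for *Pnck*, -1.42 for *Acrbp* and -2.03 for *1700003F12Rik*. Against *Kmt2a*-HET they were 1.16 for *Dnah1*, 0.97 for *Pnck*, 0.85 for *6330403K07Rik*, 3.62 for *Wdr95*, 1.82 for *Cd44* and 3.28 for *Adamts14*, with only a few counts in some groups of *Wdr95* and *Adamts14*. Against DM they were 2.05 for *Tac1*, 2.39 for *Gpr6* and 12.87 for *2210418O10Rik*, whose fitted value rests on libraries at 0 and bounds no fold.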

How the results depend on the processing

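Over the 93 genes named for the region contrast, 1084 recomputed values kept direction and call, 25 lost the call, 1 gained it and 4 turned sign. Those that turned were *Kdm5c* (-0.0082 without replicate 2, up to 0.11 without replicate 3) and, under ERCC scaling, *Kmt2a* (0.75), *S100b* (0.41) and *Smyd3* (0.17). The 4425 region calls became 7559 under ERCC scaling (7262 higher in hippocampus, 297 in amygdala) and 1613 with a log2 fold change of at least 1 (727 and 886). Leaving out each mouse gave 2950 to 3751 calls, 1556 to 1915 higher in hippocampus and 1377 to 1836 in amygdala (1407 without replicate 2, 1377 without replicate 4). Without the replicate block the counts were 2294 and 2172. The 4 calls against WT became 2 without the block, 1 by edgeR and 2 at an adjusted *p* under 0.05. With a mouse left out they were 1 to 5, with 2 or fewer without WT replicate 2, 3 or 4 or *Kdm5c*-KO replicate 3 or 4. The 12 calls against *Kmt2a*-HET became 61 with only 16 libraries and 4 to 77 with a mouse left out, 77 without *Kmt2a*-HET replicate 3, 47 without *Kdm5c*-KO replicate 2, and 4 to 7 without *Kmt2a*-HET replicate 1, 2 or 4 or *Kdm5c*-KO replicate 1 or 4. The 3 calls against DM became 0 without the block and 7 with 16 libraries. With a mouse left out they were 0 to 16, at 16 and 11 without DM replicates 4 and 2, 12 without *Kdm5c*-KO replicate 2, and 0 or 1 without DM replicate 1 or 3 or *Kdm5c*-KO replicate 1 or 3. The cause was not tested.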
